A study of Mus musculus with 4 samples.

Results

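Imprinted genes are read mainly from 1 parental copy, and 10 of them were followed in newborn mouse cortex: Meg3, Rian and Dlk1, Igf2, H19 and Cdkn1c, Peg3, Peg10, and Snrpn and Ndn. They were taken by gene name from the deposited table, by a rule that uses no measured value although earlier results of these data were known when the set was drawn up, and all 10 were found once among its 55414 genes. A low-count filter kept 17017 genes for testing, all 10 among them.

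The mark that tells the parental copies apart is DNA methylation placed in the germ line, at control regions that are then kept through development by factors such as ZFP57, TRIM28 and DNMT1. Imprinted genes lie in clusters, in which a control region switches a growth-promoting gene on one parental copy and a noncoding RNA or a growth-restraining gene on the other. Many are abundant in the embryo and in the developing brain, where they are known for roles in progenitor proliferation, neuronal migration and hypothalamic function. In this set Meg3, Rian, H19 and Cdkn1c are known as maternally expressed, and Dlk1, Igf2, Peg3, Peg10, Snrpn and Ndn as paternally expressed. The deposited values sum both parental copies, so the expressed copy was not measured.

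The tissue was C57BL/6J cerebral cortex at postnatal day 1. There were 2 libraries of genotype Mkk7flox/flox (Control 2 and Control 3) and 2 of genotype Mkk7flox/flox Emx1-Cre (cKO 2 and cKO 3). Both groups carry the floxed alleles of Mkk7 (gene Map2k7), a kinase that activates JNK, and the groups differ by the Cre. No library of Cre without floxed alleles was analysed here. Emx1-Cre acts in dorsal progenitors and their excitatory neurons and glia, so interneurons, vessels, meninges and microglia of the same tissue are largely not recombined. Nothing in the labels ties the libraries to separate animals or litters. The p-values below therefore speak only for the spread among these 4 libraries, which may be technical in part. Totals ran from 19421470 to 22511175 counts, and the 10 genes together took 0.267% and 0.255% of the Control counts and 0.223% and 0.21% of the cKO counts. Map2k7 counts were not lower in the libraries labelled cKO (38.4 and 30.4 against 47.9 and 48.2 CPM, counts scaled to a library of 1e+06), and the exons that were floxed are not in the labels, so each direction given for cKO rests on the labels. By Xist, at 0 counts in cKO 3, and Ddx3y, above 0 only there, cKO 3 was male and the other libraries were female. The 2 cKO libraries were thus not from the same animal, and for the 2 Control libraries this cannot be told. Markers of cortical excitatory neurons were present in every library, with a sum of 1400 to 1820 CPM over 10 genes, and cKO 3 and cKO 2 had the highest sums.

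Several of these genes carry small RNAs or share start regions with a neighbour, and the sequences below show the parts that the results refer to. RefSeq (GRCm38.p6) places 2 microRNA genes inside Meg3, 3 inside Rian, 1 inside H19 and 1 inside Igf2 on the strand of the host. All 11 mature sequences of the noncoding members Meg3, Rian and H19 are shown, because the host RNA is the only reading of these microRNAs here: mature microRNAs were not measured. Capitals mark the seed, bases 2 to 8.

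mmu-miR-1906 (Meg3): uGCAGCAGccugaggcagggcu

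mmu-miR-770-5p (Meg3): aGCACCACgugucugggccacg

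mmu-miR-770-3p (Meg3): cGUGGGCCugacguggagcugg

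mmu-miR-341-5p (Rian): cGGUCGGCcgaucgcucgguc

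mmu-miR-341-3p (Rian): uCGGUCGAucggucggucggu

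mmu-miR-1188-5p (Rian): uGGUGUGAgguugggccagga

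mmu-miR-1188-3p (Rian): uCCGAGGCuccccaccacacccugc

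mmu-miR-370-5p (Rian): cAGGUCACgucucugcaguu

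mmu-miR-370-3p (Rian): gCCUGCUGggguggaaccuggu

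mmu-miR-675-5p (H19): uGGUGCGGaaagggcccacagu

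mmu-miR-675-3p (H19): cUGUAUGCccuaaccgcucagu

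The 11 sequences have 11 different seeds. The 250 bases before the start of Meg3 (chr12:109540746-109540995, plus strand, GRCm38.p6) hold the hexamer TGCCGC, the core of the sequence bound by the imprint-maintaining zinc finger protein ZFP57, once, as its reverse complement GCGGCA in capitals.

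Meg3 start region: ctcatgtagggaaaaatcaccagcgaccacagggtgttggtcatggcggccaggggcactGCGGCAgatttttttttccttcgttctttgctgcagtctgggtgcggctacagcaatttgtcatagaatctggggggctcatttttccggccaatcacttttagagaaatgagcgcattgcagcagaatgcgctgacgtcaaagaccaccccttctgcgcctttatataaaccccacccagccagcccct

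The hexamer, searched on both strands, was found in 8.68% of all 32851 windows of this length in the RefSeq table. Per gene, 9.84% of 27025 genes held it in any window. Of the 7 members with a window (Meg3, Rian, Dlk1, Igf2, Peg3, Snrpn and Ndn), only Meg3 held it in any window. A match is a run of letters and not evidence of binding. A start window without a match says nothing of the control regions, which were not searched as such. Peg3 and its neighbour Usp29 start head to head, and 163 of the 250 bases before the start of Peg3 (chr7:6730420-6730669, minus strand, GRCm38.p6) also lie in the window of Usp29. They are in capitals.

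Peg3 start region: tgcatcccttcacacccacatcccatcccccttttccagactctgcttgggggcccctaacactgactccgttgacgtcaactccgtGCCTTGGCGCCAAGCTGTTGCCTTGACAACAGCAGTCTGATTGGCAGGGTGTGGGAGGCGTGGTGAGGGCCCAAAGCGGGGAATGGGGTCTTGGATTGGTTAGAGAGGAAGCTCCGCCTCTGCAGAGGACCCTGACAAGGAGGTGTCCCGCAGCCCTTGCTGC

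Levels can be set side by side between genes only per length, for which the authors' length-scaled values (TPM) were used. The order below thus rests on the transcript lengths in the authors' estimate. For Meg3 and Rian those lengths differed between the groups, as given further below. Snrpn was the most abundant of the 10 genes at a mean of 627 TPM over the 4 libraries (558 to 696), followed by Ndn at 436 TPM (374 to 510). Meg3 (mean 243 TPM, 194 to 332) and Cdkn1c (mean 241 TPM, 218 to 274) came next, and their ranges overlapped. Igf2 stood at 55.6 TPM (41.3 to 74.5). Rian (25.6 TPM, 23.5 to 28.5) and H19 (23.8 TPM, 19.7 to 32.5) overlapped with each other and lay above Dlk1 (13.9 TPM, 12.3 to 17.7). Peg3 was at 8.65 TPM (5.42 to 10.4). Peg10, a gene derived from a retrotransposon, was lowest at 0.426 TPM (0.282 to 0.522), from 29 to 51 counts in a library. Levels in the newborn cortex thus spanned over 3 orders of magnitude, with the genes of the Prader-Willi region at the top and no overlap between neighbours in the order except for the pairs Meg3 and Cdkn1c, and Rian and H19.

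**Figure D1:**
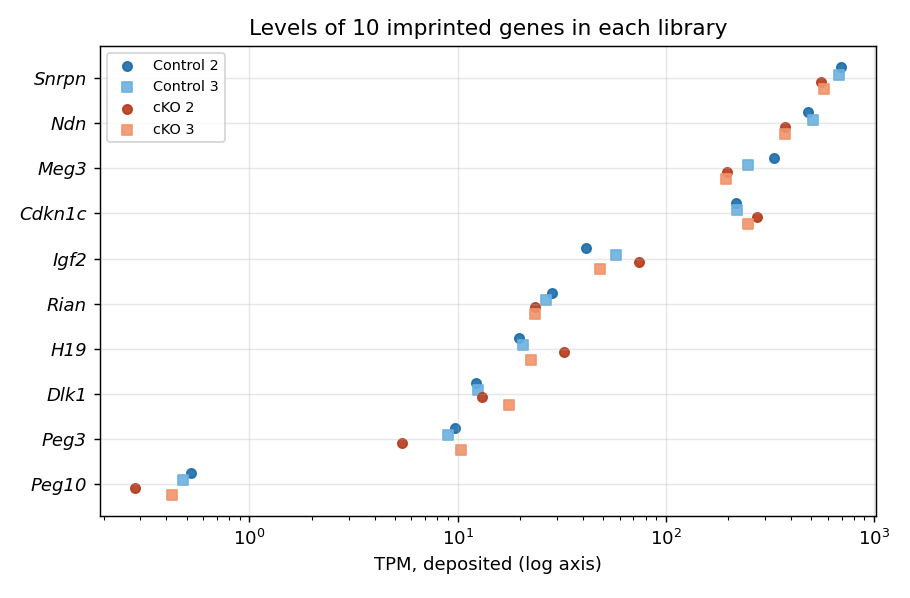
Deposited TPM (horizontal, log axis) of the 10 imprinted genes in each library; circles and squares are single libraries, blue for Control and red or orange for cKO. Snrpn and Ndn sit at the top and Peg10 lies below 1 TPM in every library.

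No member passed the threshold of 0.05 for the genotype contrast after adjustment over all tested genes (edgeR quasi-likelihood test), where 0.047% of all tested genes passed. At an unadjusted p under 0.05 there were 4 of the 10, against 10.9% of all tested genes. Meg3, Rian and Ndn had lower values in cKO (5.66% of all tested genes were lower at this p), and Cdkn1c had higher ones (5.28% were higher). DESeq2 called 1 member lower, Meg3, where it called 0.641% of the genes it adjusted lower. Both cKO libraries lay below both Control libraries for 5 members (Meg3, Rian, Snrpn, Ndn and Peg10) and above them for 2 (Dlk1 and Cdkn1c), against 22.2% of all tested genes below and 22% above. In either direction 70% of the members and 44.1% of all tested genes did not overlap. The median log2 fold change of the members was -0.22, beside -0.002 over all tested genes. These are counts over a chosen set of 10 genes and are given as a description.

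**Figure D2:**
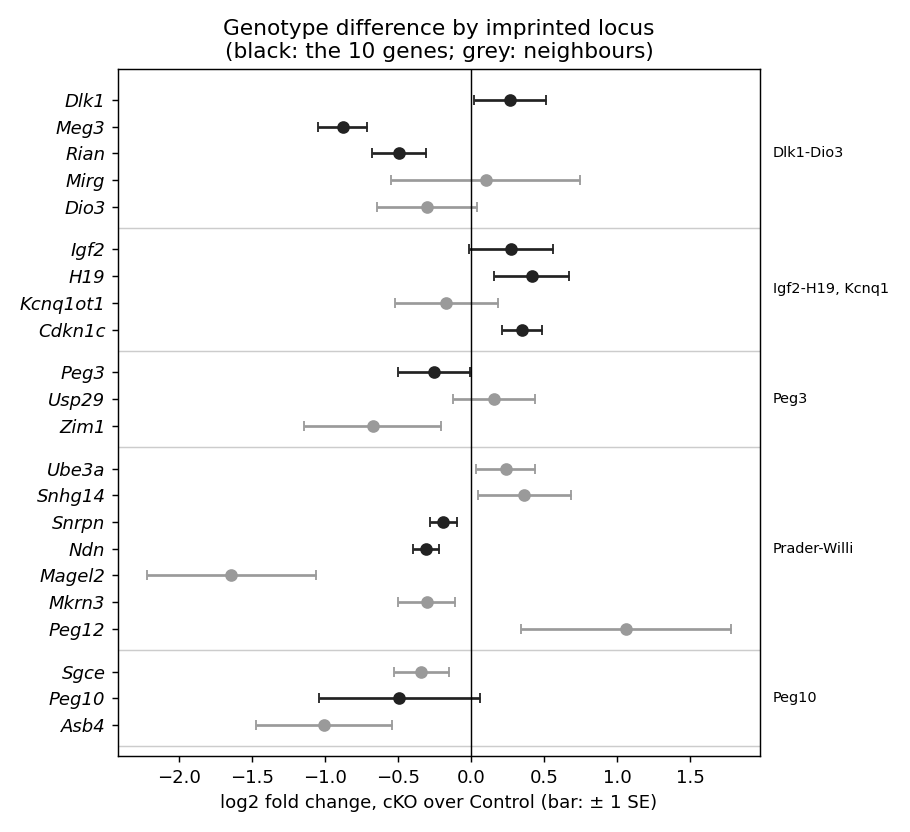
Log2 fold change of cKO over Control (horizontal, bars ± 1 SE from the edgeR fit, 2 libraries per group) for the 10 genes in black and neighbours at their loci in grey. Meg3 and Rian lie left of 0 and Dlk1 right of it at the same locus, and in the Prader-Willi region Ndn, Snrpn, Magel2 and Mkrn3 lie left of 0 while Ube3a, Snhg14 (left of 0 on the TPM scale) and Peg12 lie right of it.

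At the Dlk1-Dio3 locus of chromosome 12 the noncoding RNAs Meg3 and Rian had lower values in both cKO libraries, the noncoding RNA Mirg, also maternally expressed, did not, and nor did the paternally expressed protein gene Dlk1. None of the 4 passed the edgeR threshold. Meg3 (ENSMUSG00000021268.18; chromosome 12, 109506884 to 109538160, GRCm39, plus strand, annotated as a lncRNA) makes a nuclear noncoding RNA that has been described as a growth restrainer and a partner of Polycomb proteins. Meg3 stood at 349.9 CPM in Control 2 and 255.8 CPM in Control 3, against 174.7 CPM in cKO 2 and 154.9 CPM in cKO 3. Both cKO libraries were below both Control libraries, and the Control libraries differed from each other by more than the cKO libraries did. The means were 303 ± 66.5 and 165 ± 14.0 CPM (SD, n = 2), or 0.544-fold. In edgeR this was a log2 fold change of -0.88 with an SE of 0.17 (adjusted p = 0.242, unadjusted p = 0.000994, the 68th smallest p of all tested genes). With DESeq2 the log2 fold change was -0.89 at an adjusted p of 3.6e-05, and with no filter on low counts in edgeR it was -0.89 at an adjusted p of 0.026. Without Control 2 the log2 fold change was -0.64, and without Control 3 it was -1.09. Over the female libraries alone, without cKO 3, it was -0.80. On the TPM scale it was smaller, at -0.55 (limma on log2(TPM + 1), adjusted p = 0.196).

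The difference between the count and TPM scales reflects, by construction, a shift in the transcript length that the authors' estimate assigned to Meg3. That length, here and below, is computed from count and TPM, so its shift largely restates the gap and is not a separate observation. The ratio of count to TPM gives this apparent length. It was scaled so that the median gene with enough counts had its deposited gene length in each library. The bases given here and below are therefore relative and not true transcript lengths. For Meg3 this apparent length was 1890 and 1840 bases in Control and 1490 and 1510 bases in cKO. The deposited gene length is 14548 bases. Its log2 ratio of cKO over Control was -0.31, at the 2.1 percentile of 11018 genes with at least 100 counts in every library. Rian showed a shift of like size, from 2420 and 2390 bases to 1990 and 2020 bases (log2 ratio -0.26, percentile 3.0). For the other 8 members the log2 ratio lay between -0.07 (Igf2) and 0.10 (Ndn). Which transcripts of Meg3 or Rian carried the reads was not given per transcript.

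Rian (ENSMUSG00000097451.12; chromosome 12, 109570242 to 109628150, plus strand, lncRNA) is the host of box C/D small nucleolar RNAs and of microRNAs downstream of Meg3, among them miR-370 and miR-341 shown above. Rian stood at 38.6 and 35.9 CPM in the Control libraries and at 27.9 and 25.0 CPM in the cKO libraries. The groups did not overlap, and the spread within each was small (37.2 ± 1.88 and 26.4 ± 2.05 CPM, SD, n = 2). The log2 fold change was -0.50 (SE 0.18, edgeR adjusted p = 0.425), and on the TPM scale it was -0.22. The ratio of Meg3 to Rian CPM was 9.08, 7.13, 6.27 and 6.21 in Control 2, Control 3, cKO 2 and cKO 3.

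Dlk1 (ENSMUSG00000040856.18; chromosome 12, 109418749 to 109429262, plus strand, protein coding) encodes a Delta-like transmembrane protein that modulates progenitor differentiation. Dlk1 was at 11.97 and 12.99 CPM in the Control libraries and 13.9 and 16.1 CPM in the cKO libraries. Its values in cKO were just above those of Control, by a log2 fold change of 0.27 (SE 0.24, edgeR adjusted p = 0.725), and rested on 235 to 368 counts. Meg3 CPM divided by Dlk1 CPM was 29.2 and 19.7 in Control 2 and 3 and 12.6 and 9.61 in cKO 2 and 3. This ratio of the maternal to the paternal product could not overlap between groups. Meg3 was already lower and Dlk1 already higher in both cKO libraries, so the ratio is not a further result. With 2 libraries a group, an exact permutation test of such a ratio cannot give a two-sided p below 0.333. Of 4 listed neighbours, Mirg (1.63 and 1.27 CPM in Control, 1.58 and 1.53 CPM in cKO, log2 fold change 0.10, SE 0.65) and the thyroid hormone deiodinase gene Dio3 (-0.30, SE 0.34) were tested and neither passed; both rested on few counts.

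Several other genes and marker sums were, like Meg3, highest in Control 2 and lowest in cKO 3. By a rule of likeness, the root mean square difference of centred log2 CPM over the 4 libraries among 11921 other genes, the nearest to Meg3 were Slc32a1, Rgs2 and Zbtb37 (0.0255, 0.0312 and 0.0360). Slc32a1, which encodes the vesicular transporter of GABA, stood at 11.1, 7.97, 5.11 and 4.2 CPM over Control 2, Control 3, cKO 2 and cKO 3. Over 4 libraries many genes share an order, and likeness says nothing of shared control. In the same order the summed level of 12 striatal projection neuron markers was 529, 379, 144 and 141 CPM, with 12 of 12 lower in both cKO libraries, beside 22.2% of all tested genes, and 1 that passed the edgeR threshold. This sum moved more between the genotypes than Meg3 did. The sum of 10 cortical interneuron markers was 1040, 960, 874 and 737 CPM and moved less than Meg3, with 10 of 10 log2 fold changes negative but only 6 of 10 lower in both cKO libraries. That of 10 markers of astrocytes and radial glia was 2260, 2330, 2020 and 1870 CPM, with 9 of 10 negative and 4 lower in both cKO libraries. A sum of 5 RNAs held at least in part in the nucleus (Malat1, Neat1, Snhg11, Miat and Rsrp1) was 752, 612, 470 and 440 CPM. The sum of the 13 protein genes of the mitochondrial genome, a measure that can move with RNA quality, went the other way, at 10200, 10400, 11100 and 11700 CPM, with 10 of 13 higher in both cKO libraries beside 22% of all tested genes. None of the markers in the striatal, interneuron or astrocyte lists was at 0 in all libraries. The part of these sums in the Meg3 and Rian values was not tested. In such bulk tissue, fewer cells of a type and less RNA per cell cannot be told apart.

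**Figure D3:**
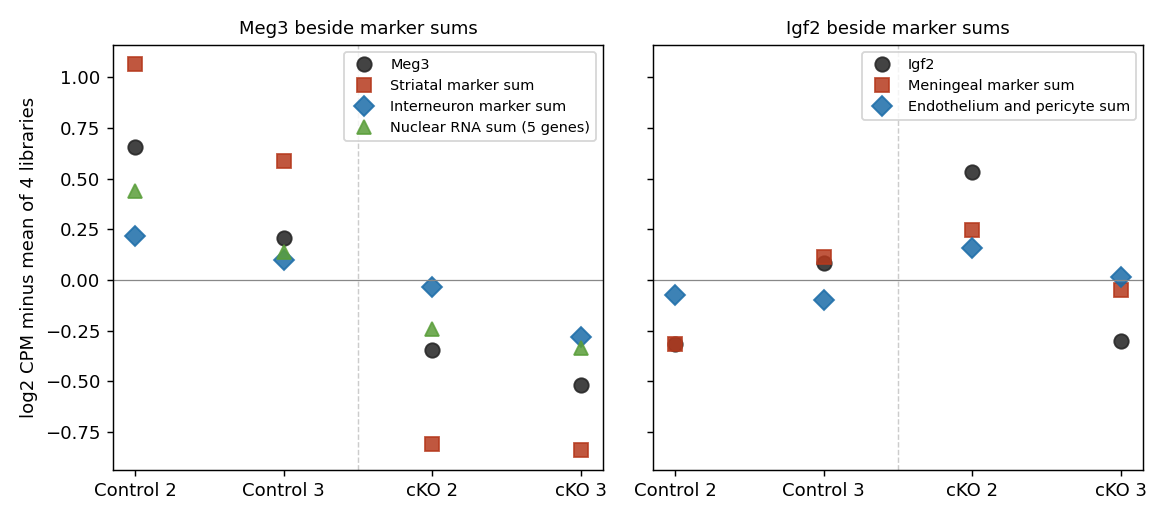
Log2 CPM minus the mean of the 4 libraries (vertical) for Meg3 beside sums of striatal, interneuron and nuclear RNA genes (left), and for Igf2 beside sums of meningeal and vascular genes (right), by library. The striatal sum (529 and 379 CPM in Control, 144 and 141 CPM in cKO) and Meg3 are highest in Control 2 and lowest in cKO 3, and Igf2 and the meningeal sum are highest in cKO 2.

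At the distal end of chromosome 7, Igf2 and H19 were both highest in cKO 2, and for neither were the groups apart. Igf2 (ENSMUSG00000048583.17; chromosome 7, 142204503 to 142220553, minus strand, protein coding) encodes insulin-like growth factor 2, a fetal growth factor that in the brain is known from meninges, choroid plexus and vessels. Igf2 was read at 34.5 CPM in Control 2, 45.4 CPM in Control 3, 62.0 CPM in cKO 2 and 34.8 CPM in cKO 3. The groups overlapped, with cKO 2 above all others and cKO 3 level with Control 2. The log2 fold change was 0.27 (SE 0.29, edgeR adjusted p = 0.765), and without cKO 2 it was -0.20.

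H19 (ENSMUSG00000000031.17; chromosome 7, 142129266 to 142131880, minus strand, lncRNA) shares enhancers with Igf2 and is read from the other parental copy; it is the host of miR-675. H19 stood at 22.6, 25.4, 39.4 and 24.7 CPM in Control 2, Control 3, cKO 2 and cKO 3. As for Igf2, cKO 2 was the highest library and the groups overlapped (log2 fold change 0.41, SE 0.26, edgeR adjusted p = 0.602; 0.04 without cKO 2). H19 divided by Igf2 CPM stayed between 0.560 and 0.709 in the 4 libraries, a narrower range than that of either gene. The sum of 10 meningeal and fibroblast markers was 666, 897, 984 and 801 CPM in Control 2, Control 3, cKO 2 and cKO 3, and that of 8 choroid plexus markers was 808, 15.0, 362 and 10.8 CPM. The sum of endothelial and pericyte markers (10 genes) was 333, 328, 392 and 355 CPM. That of 6 red blood cell markers was 3090, 3410, 4910 and 1870 CPM, highest in cKO 2 and lowest in cKO 3. No marker of these 4 lists was at 0 in all libraries, and their part in the Igf2 and H19 values was not tested. The genes nearest to Igf2 by the same rule of likeness were Tmem88, Arrdc3 and Gadd45g (0.0387, 0.0454 and 0.0484), and each was highest in cKO 2.

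Cdkn1c (ENSMUSG00000037664.14; chromosome 7, 143012076 to 143014787, minus strand, protein coding), in the neighbouring Kcnq1 domain, encodes p57KIP2, an inhibitor of cyclin-dependent kinases that brings cortical progenitors out of the cell cycle. Cdkn1c stood at 130.6 and 141.0 CPM in the Control libraries and at 189.8 and 156.3 CPM in the cKO libraries. All cKO values were above all Control values, most in cKO 2. The means were 136 ± 7.35 and 173 ± 23.7 CPM (SD, n = 2), or 1.27-fold. The log2 fold change was 0.35 with an SE of 0.14 (edgeR adjusted p = 0.434, unadjusted p = 0.0370). Without cKO 2 the log2 fold change was 0.21. Kcnq1ot1, the noncoding RNA that silences the paternal copy of this domain, had a log2 fold change of -0.17 (SE 0.35). Of the 11 other genes listed for this stretch of chromosome 7, 7 were tested and none passed; Ins2, Igf2os, Phlda2 and Ascl2 were left out by the filter.

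**Figure D4:**
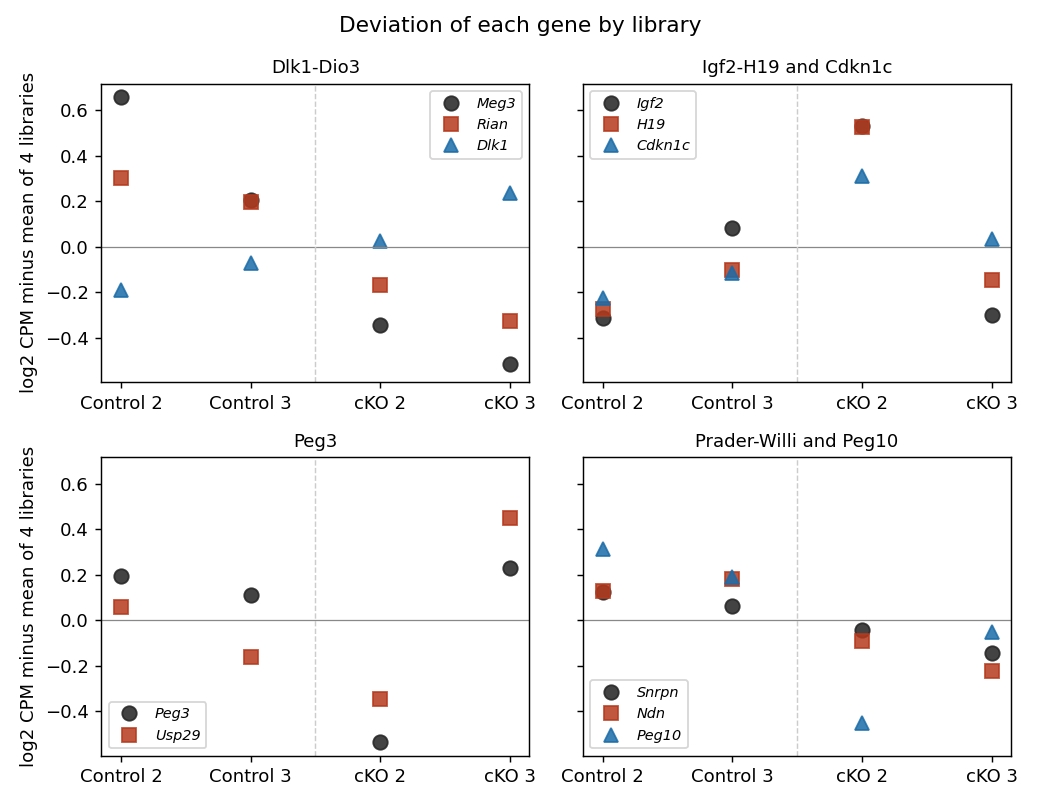
Log2 CPM minus the mean of the 4 libraries (vertical) for the members and Usp29, by library, in 1 panel per locus; the dashed line separates Control from cKO. Igf2 and H19 are highest in cKO 2, Peg3 and Usp29 are lowest in cKO 2 and highest in cKO 3, and Meg3 and Dlk1 run in opposite order.

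Peg3 and Usp29, which start head to head in the region shown above, had the same order of libraries and no common direction in cKO. Peg3 (ENSMUSG00000002265.18; chromosome 7, 6706891 to 6733430, minus strand, protein coding) encodes a large zinc finger protein. Peg3 stood at 64.5 and 60.9 CPM in the Control libraries, 38.9 CPM in cKO 2 and 66.3 CPM in cKO 3. Both cKO libraries lay outside the Control range, on opposite sides of it. The log2 fold change was -0.25 (SE 0.25, edgeR adjusted p = 0.744), and it was 0.08 without cKO 2 and -0.69 without cKO 3. Usp29, a gene for a ubiquitin protease, had 31.8 and 27.3 CPM in Control, 24.1 CPM in cKO 2 and 41.8 CPM in cKO 3, with the same order of libraries as Peg3 (log2 fold change 0.16, SE 0.28). Peg3 divided by Usp29 CPM was 2.03 and 2.23 in Control 2 and Control 3 and 1.62 and 1.58 in cKO 2 and cKO 3. This ratio did not overlap between groups, and it was not tested. Single values often did the same, as 44.1% of all tested genes did not overlap. The ratio of Meg3 to Rian did not overlap either, nor did that of Ndn to Snrpn (1.4 and 1.52 in Control, 1.36 and 1.33 in cKO), while that of H19 to Igf2 did. The third tested gene of the locus, Zim1, had a log2 fold change of -0.67 (SE 0.47).

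In the Prader-Willi region of chromosome 7, the paternally expressed protein genes Ndn, Snrpn, Magel2 and Mkrn3 had lower values in both cKO libraries, Peg12 did not, and none of these 5 passed the edgeR threshold. Ndn (ENSMUSG00000033585.6; chromosome 7, 61996317 to 62000010, plus strand, protein coding) encodes necdin, a MAGE family protein of postmitotic neurons that restrains the cell cycle and supports survival. Ndn stood at 1157 and 1201 CPM in the Control libraries and at 995 and 908 CPM in the cKO libraries. The groups did not overlap (1179 ± 30.8 and 952 ± 61.4 CPM, SD, n = 2, or 0.807-fold). The log2 fold change of -0.31 had an SE of 0.09, and with 0.346 the adjusted p of edgeR missed the threshold (unadjusted p = 0.00886). Over all alternatives run, the log2 fold change stayed between -0.41 and -0.25 and the lowest adjusted p was 0.169, with DESeq2.

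Snrpn (ENSMUSG00000102252.6; chromosome 7, 59632243 to 59789967, minus strand, protein coding) encodes SmN, the neuronal form of a core spliceosome protein. Snrpn stood at 825 and 791 CPM in the Control libraries and at 733.5 and 684 CPM in the cKO libraries, with no overlap between groups (808 ± 23.98 and 709 ± 35.0 CPM, SD, n = 2). The log2 fold change was -0.19 (SE 0.09, edgeR adjusted p = 0.502). The upstream open reading frame Snurf is carried by the same transcript and is listed as a gene of its own of 216 bases, and reads of one can be counted for the other. Snurf was listed at 0 counts in both Control libraries and at 47 and 55 counts in cKO 2 and cKO 3, which is at least 32-fold higher against a floor of 3 counts over the Control group. The RefSeq start window of Snurf is identical to 1 of the 4 windows of Snrpn, so the split is uncertain and the Snurf entry is not read as a level. With the counts of both entries added, an alternative chosen after seeing the data, Snrpn had a log2 fold change of -0.18 (edgeR adjusted p = 0.515).

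Magel2, a MAGE family neighbour of Ndn that acts in hypothalamic neurons, stood at 11.5 and 5.53 CPM in Control and 1.47 and 3.94 CPM in cKO, a log2 fold change of -1.64 with an SE of 0.58 (edgeR adjusted p = 0.406). Single libraries moved this value, which was -1.02 without Control 2, -2.07 without Control 3, -1.10 without cKO 2 and -2.52 without cKO 3. Mkrn3, a ubiquitin ligase gene, was at 27.9 and 27.1 CPM in Control and 21.8 and 22.8 CPM in cKO, a log2 fold change of -0.30 with an SE of 0.19 (edgeR adjusted p = 0.609). For neither gene did the groups overlap. Peg12, a paternally expressed neighbour, was at 1.32 and 1.12 CPM in Control, 3.84 CPM in cKO 2 and 1.27 CPM in cKO 3, a log2 fold change of 1.06 with an SE of 0.72 (edgeR adjusted p = 0.633). Without cKO 2 its log2 fold change was 0.06. Ube3a, the maternally expressed ubiquitin ligase gene of the region, had a log2 fold change of 0.24 (SE 0.20). That of Snhg14, the noncoding RNA that overlaps it from the other strand, was 0.37 (SE 0.32) and turned to -0.27 on the TPM scale. The library kit does not mark strand, so reads cannot be told apart where the pair overlaps, from 58957672 to 58961284. The apparent length of Snhg14 was 1560 and 1840 bases in Control and 2130 and 3370 bases in cKO (log2 ratio 0.70, percentile 99.9). Of 10 markers of hypothalamus and septum the sum was 43.0 and 45.9 CPM in Control and 19.2 and 13.3 CPM in cKO, and all 6 tested ones were negative; none was at 0 in all libraries. Their part in the values of Ndn and Magel2 was not tested.

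Peg10 (ENSMUSG00000092035.9; chromosome 6, 4747306 to 4760517, plus strand, protein coding) was read 51, 47, 29 and 46 times in Control 2, Control 3, cKO 2 and cKO 3. This is 2.60, 2.39, 1.53 and 2.01 CPM, with no overlap but an SE as wide as the difference (log2 fold change -0.49, SE 0.55, edgeR adjusted p = 0.783). Sgce, the sarcoglycan gene that lies next to Peg10 on the other strand, stood at 31.3 and 29.0 CPM in Control and 24.01 and 23.69 CPM in cKO, a log2 fold change of -0.34 with an SE of 0.19 (edgeR adjusted p = 0.557). Asb4, further along the same cluster, had a log2 fold change of -1.01 (SE 0.47).

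Of 64 other imprinted genes in the table, 55 were tested and none passed the edgeR threshold. At an unadjusted p under 0.05, 3 had higher (Mest, Dcn and the uncertain Snurf) and 5 lower values, 14.5% of those tested, against 10.9% of all tested genes. Their median log2 fold change was -0.08, beside -0.002 over all tested genes. Between groups 36.4% did not overlap, against 44.1% of all tested genes. Of the 55, 6 were higher and 14 lower in both cKO libraries, beside 22% and 22.2% of all tested genes. As a list they lay near the background, with fewer non-overlapping genes higher than lower. Outside the members' own loci, the smallest p belonged to Mest, a paternally expressed gene of mesoderm and brain for a hydrolase-like protein. Mest stood at 63.2 and 63.3 CPM in the Control libraries and at 114 and 101 CPM in the cKO libraries, or 1.70-fold, with the Control libraries nearly equal. Its log2 fold change was 0.77 with an SE of 0.13 (edgeR adjusted p = 0.235, DESeq2 adjusted p = 0.00135). The end of Mest overlaps that of Copg2 on the other strand. The next were Rasgrf1 (-0.88, SE 0.24), the cadherin gene Cdh15 (-1.40, SE 0.38), Nap1l5 (-0.46, SE 0.13) and the proteoglycan gene Dcn (0.67, SE 0.20), each as a log2 fold change with an edgeR adjusted p between 0.336 and 0.362. On the TPM scale the log2 fold change of Rasgrf1 was only -0.13, while those of Cdh15, Nap1l5 and Dcn were -0.915, -0.57 and 0.62. The apparent length of Rasgrf1 was 4370 and 4450 bases in Control and 1940 and 3700 bases in cKO (log2 ratio -0.645, percentile 0.3). Dcn is also a marker of meningeal fibroblasts, whose sum is given above.

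A start region of Mest (chr6:30737800-30738049, plus strand, GRCm38.p6) is shown because it also holds the hexamer, 2 times, in capitals as its reverse complement. Another start window of Mest held none, and neither did the other window of Meg3 or the windows of Usp29, Snurf and Magel2. Mest was shown for the match itself, so the match says nothing of ZFP57 binding or of the values of Mest and Meg3.

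Mest start region: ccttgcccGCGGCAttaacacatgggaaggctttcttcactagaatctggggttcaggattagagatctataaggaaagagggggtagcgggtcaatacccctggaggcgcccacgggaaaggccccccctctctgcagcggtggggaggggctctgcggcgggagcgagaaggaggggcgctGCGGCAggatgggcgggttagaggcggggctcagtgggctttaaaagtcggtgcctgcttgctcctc

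Genes listed for imprint maintenance and DNA methylation, with TET and Polycomb genes among them, showed no called difference. Of 22 listed, 20 were tested (8 positive and 12 negative, median log2 fold change -0.03), none passed adjusted or at an unadjusted p under 0.05, and Dnmt3l and Dppa3 had 0 counts throughout. The smallest p belonged to the histone methyltransferase gene Ehmt1 (log2 fold change -0.31, SE 0.13), Zfp445, a partner of ZFP57 at imprints (-0.33, SE 0.15), and Setdb1 (-0.38, SE 0.19), followed by Suz12 (0.35, SE 0.23) and Trim28 (-0.15, SE 0.11). Zfp57 itself stood at 38.1 and 30.5 CPM in Control and 38.7 and 25.5 CPM in cKO. Among 21 tested partners of IGF, Delta-like and CDK inhibitor signalling, none passed after adjustment and 2 had an unadjusted p under 0.05, or 9.52%, near the 10.9% of all tested genes. Of the 21, 16 were positive and 5 negative, and the median log2 fold change was 0.26. The largest single difference by p was that of Igf2bp2, which encodes a binding protein of Igf2 RNA, at 8.86 and 7.16 CPM in Control and 14.9 and 14.1 CPM in cKO, a log2 fold change of 0.85 with an SE of 0.27 (edgeR adjusted p = 0.382). It was followed by Notch2 (0.69, SE 0.29), Igfbp4 (0.26, SE 0.12), Igfbp2 (0.34, SE 0.17) and Dlk2 (-0.48, SE 0.26), the paralogue of Dlk1.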

How the data were processed

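RNA from 4 cortex libraries was extracted with TRIzol and made into SMART-Seq v4 libraries, per the labels' protocols. The deposited table holds the authors' estimated counts and TPM per gene; DRAGEN and GRCm39 are named in the submitters' processing notes, while their version, settings and annotation release were not given in the sources used here. Estimated counts were rounded, filtered with edgeR's filterByExpr (edgeR 4.0.16, R 4.3.3), scaled by TMM and tested by genotype with the quasi-likelihood test over 17017 genes (Benjamini-Hochberg, threshold 0.05). CPM uses TMM-scaled totals, and SE is the absolute log2 fold change over the root of F. TPM was used for levels between genes and, with a pseudocount of 1, in limma 3.58.1. Simulated counts for the genotype contrast gave back 62 of 100 genes at 2-fold and 97 of 100 at 4-fold, with 13 false calls over 17017 genes. As a share of the genes called, the false calls exceeded the threshold of 0.05. They were also more than the 8 genes called in the data, but the simulation held 100 changed genes at each fold. How many genes changed in the data is not known, so the simulation cannot say how many of the 8 are false. No library repeats another (chi-square over its degrees of freedom 12.8 in Control, 27.7 in cKO). Alternatives were other scalings and filters, DESeq2 1.42.0, limma-voom, robust shrinkage, TPM, a replicate block and leaving out each library. Members, lists and the rule for named genes (members, listed neighbours, up to 5 genes per further list by p, and nearest patterns) were chosen with earlier results of these data known.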

Additional observations from a re-analysis of the deposited data

How the results depend on the processing

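The number of genes called over the whole table was 8, and it was 58 with no filter, 190 with DESeq2, 76 with limma on log2(TPM + 1), and 0 to 2 when 1 library was left out. Members called were 0, and 1 (Meg3) with no filter and with DESeq2, where its log2 fold change was -0.887 in both (adjusted p = 0.026 and 3.6e-05; over all alternatives 3.6e-05 to 0.919). Other imprinted genes called were 0, and 1 with no filter (Snurf), 2 with DESeq2 (Snurf and Mest) and 1 on TPM (Snurf). The sign turned for Igf2 without a library (range -0.199 to 0.632), Peg3 (-0.689 to 0.081), Mirg (-0.069 to 0.29), Usp29 (-0.298 to 0.502) and Ube3a (-0.114 to 0.519), and for Snhg14 on TPM (-0.266). Replicate numbers are not tied to a litter or day in the labels, and same-numbered libraries deviated with a correlation of -0.00208; with the replicate block Meg3 had a log2 fold change of -0.863, Ndn -0.31 and Mest 0.766, and no member was called. Upper-quartile scaling moved the median of all genes to 0.038. Peg10 had 29 counts in its lowest library, and an SE of 0.55 on a log2 fold change of -0.49.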
